A study of Homo sapiens with 21 samples.

Results

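Homologous recombination copies an intact sister strand to mend a broken chromosome, and the Fanconi proteins unhook DNA crosslinks and hand the resulting breaks to the same machinery. The data described here are the RNA levels of 35 genes of these linked pathways among the 23368 genes listed for hTERT-HPNE cells, a telomerase-immortalized, nontransformed human pancreatic line that is grown with EGF. Members were found by gene symbol, and each of the 35 had a row in the table. The 7 groups of 3 libraries were untreated cells, cells given 300 µM hydrogen peroxide (H2O2), an oxidant, and cells given 400 ng/ml neocarzinostatin (NCS), a radiomimetic drug that cuts both DNA strands, with each treatment sampled at 4, 8 and 24 h. The study compared the 2 agents to ask how cells respond differently to oxidative stress and to double-strand breaks.

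The untreated libraries were taken at time 0 only and the treated dishes received fresh medium, so a difference from untreated cells cannot be told apart from a change with time or medium. The comparison of H2O2 with NCS at one time does not have this limit. The libraries came from bulk RNA of an unsorted culture, where fewer cycling cells and less of these RNAs per cell cannot be told apart.

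Resection factors trim a broken end to single-stranded DNA, BRCA1, PALB2 and BRCA2 then prepare it for strand exchange, and motor proteins drive the pairing with the sister. In the Fanconi branch a core complex of several FANC proteins and UBE2T attach ubiquitin to FANCD2 and FANCI, and USP1 takes it off again. Many of these genes are transcribed mainly in S and G2 phase, when a sister copy exists, so they are counted among proliferation genes as well as repair genes.

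Each value below is an rLog value, a log2-scale normalized count from DESeq2 that pulls noisy genes toward their mean, and a difference of 1 would be a doubling without that shrinkage. Read depth is unknown because no counts were analysed here, and levels are not compared between genes. The members' mean values ran from 7.17 for FANCB to 11.04 for RAD50, so none lay near the bottom of the scale. Of the markers checked, NES (nestin, 12.03 on average) and VIM (17.03) were high, as were the fibroblast genes COL1A1 (17.82) and PDGFRB (12.52), while among duct genes KRT7 averaged 6.93, SOX9 6.07, KRT19 0.60 and CFTR -1.34. Acinar PRSS1 and CELA3A, islet INS and the T-cell gene CD3E were listed at 0 in every library. Among the H2O2 libraries at 8 h, library 2 was the highest of the 3 for 27 of the 35 members, by a median of 0.15 over the mean of the other libraries, and library 1 the lowest for 25, with a median of -0.11. In the other groups these medians lay between -0.061 and 0.0368.

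By 24 h nearly the whole set had fallen in both treatments. After H2O2, 32 of 35 members fell (limma, adjusted p under 0.05), against 19.9% of the 19694 genes tested, and 2 rose, against 20.2%. After NCS 33 fell, against 18.4%, and 1 rose, against 19.6%. The median member difference was -1.05 with H2O2 and -1.11 with NCS, while the median over all genes was near 0 in each. A fall of more than 1 on the log2 scale was seen for 19 members in each treatment, against 1.29% of all genes for H2O2 and 1.37% for NCS. Of the 3911 genes lower at 24 h of H2O2, 3717 had a mean value of at least 5. The same shares were therefore also taken over the 11681 genes with such a mean, and they were 31.8% lower for H2O2 and 29.6% lower for NCS.

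**Figure D1:**
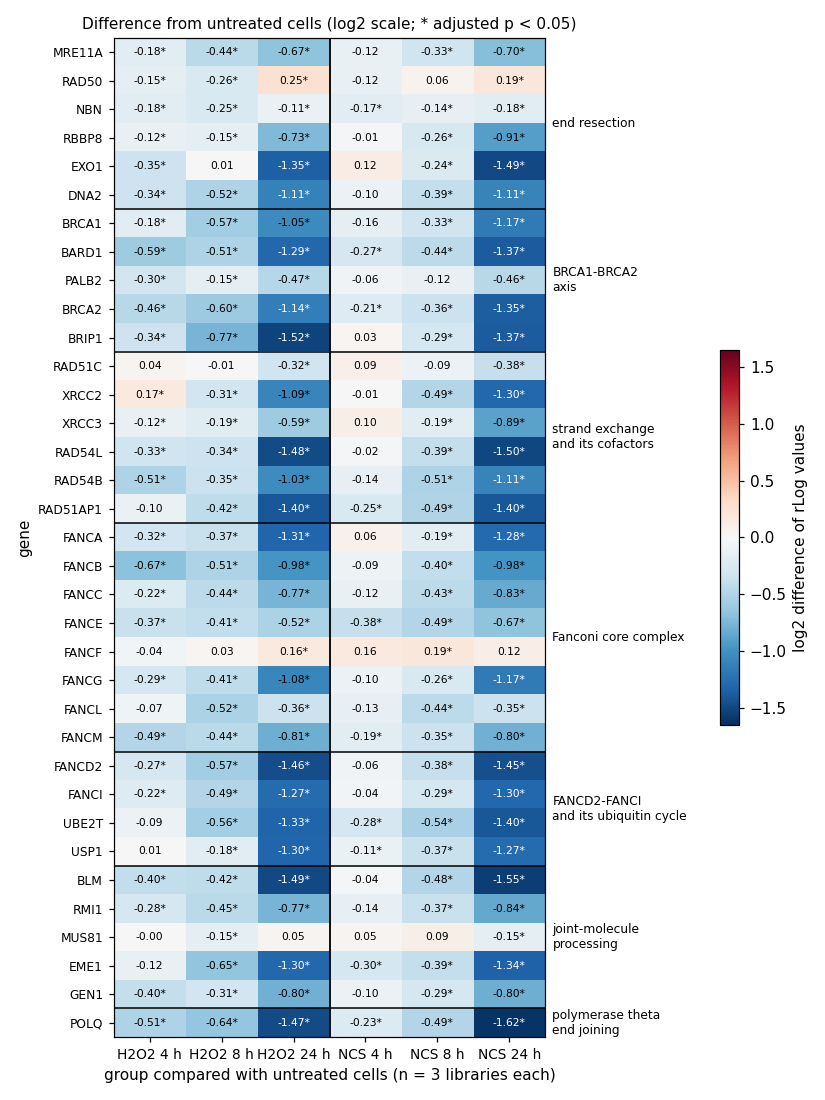
Difference of each member's group mean from untreated cells (log2 scale of rLog values, n = 3 libraries a group), with genes in rows ordered by role and the 6 treated groups in columns; blue is lower, red is higher, and an asterisk marks an adjusted p under 0.05. The 24 h columns are blue except for RAD50 and FANCF in both treatments and MUS81 with H2O2, and the NCS 4 h column is the palest.

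The 3 members with the largest falls at 24 h of H2O2 were BRIP1, BLM and RAD54L, and with NCS they were POLQ, BLM and RAD54L. BRIP1 encodes a helicase that binds BRCA1 and unwinds DNA at crosslinks. Its value was 9.76, 9.69 and 9.73 in the untreated libraries, 8.29, 8.23 and 8.09 at 24 h of H2O2, and 8.27, 8.42 and 8.39 at 24 h of NCS. All treated libraries lay more than 1 log2 unit below all untreated ones, and the H2O2 and NCS libraries overlapped. The difference from untreated cells was -1.52 ± 0.07 (SE) with H2O2 (limma adjusted p = 2.28e-12) and -1.37 ± 0.07 with NCS (adjusted p = 1.12e-11).

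BLM encodes the Bloom syndrome helicase, which takes apart joined DNA molecules without crossing over. It stood at 8.91, 8.92 and 8.86 in untreated libraries, at 7.45, 7.46 and 7.32 at 24 h of H2O2, and at 7.24, 7.48 and 7.33 at 24 h of NCS. The treated libraries again lay wholly below the untreated ones, and the treatments overlapped. BLM fell by 1.49 with H2O2 and by 1.55 with NCS, each ± 0.07 (limma adjusted p = 3.67e-12 and 2.16e-12).

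RAD54L, a motor that helps pair the broken strand with its sister, read 9.17, 9.22 and 9.24 in untreated libraries. At 24 h it read 7.77, 7.75 and 7.67 with H2O2 and 7.64, 7.80 and 7.70 with NCS. No treated library overlapped an untreated one, and the 2 treatments overlapped. The falls were 1.48 and 1.50 on the log2 scale, each ± 0.05 (limma adjusted p = 9.78e-14 and 8.05e-14).

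POLQ encodes polymerase theta, which joins ends through short stretches of matching bases and is the only member outside recombination and the Fanconi pathway. Its untreated values were 9.98, 9.97 and 9.95, and at 24 h it stood at 8.54, 8.47 and 8.48 with H2O2 and at 8.26, 8.45 and 8.32 with NCS. All 3 NCS libraries were below all 3 H2O2 libraries, but the difference between the treatments did not pass the test over all genes (0.15 ± 0.06, limma adjusted p = 0.0731). Against untreated cells POLQ fell by 1.47 with H2O2 and by 1.62 with NCS (limma adjusted p = 2.49e-13 and 6.93e-14).

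Set against these are members whose values barely moved or moved up. MUS81 encodes the catalytic subunit of a nuclease that cuts branched DNA. Its values were 10.31, 10.31 and 10.36 in untreated libraries, 10.35, 10.37 and 10.40 at 24 h of H2O2, and 10.15, 10.18 and 10.21 at 24 h of NCS. The H2O2 libraries overlapped the untreated range (0.05 ± 0.04, limma adjusted p = 0.464), and the NCS libraries lay below it (-0.15 ± 0.04, adjusted p = 0.00815). The NCS call was lost with quantile normalization (limma adjusted p = 0.0929).

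NBN encodes nibrin, which links the MRE11-RAD50 complex to the ATM kinase. It read 10.79, 10.71 and 10.73 in untreated libraries, 10.62, 10.59 and 10.71 with H2O2 at 24 h, and 10.61, 10.57 and 10.51 with NCS at 24 h. The highest H2O2 library reached the lowest untreated value to within 0.01, and the NCS libraries were clear of it. The fall was 0.11 with H2O2 (limma adjusted p = 0.0436) and 0.18 with NCS (adjusted p = 0.00123), each ± 0.04. The H2O2 call for NBN did not hold under quantile normalization (adjusted p = 0.264) or when untreated library 1 or 3 or H2O2 library 1 or 2 was left out (0.174, 0.0657, 0.125 and 0.183).

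FANCF, an adaptor subunit of the Fanconi core complex, was the only member that never passed as lower at any time in either treatment. It read 7.36, 7.49 and 7.37 in untreated libraries, 7.60, 7.52 and 7.60 at 24 h of H2O2, and 7.51, 7.61 and 7.46 at 24 h of NCS. All H2O2 libraries were above all untreated ones, whereas NCS library 3 fell inside the untreated range. It rose by 0.16 ± 0.06 with H2O2 (limma adjusted p = 0.0233), and with NCS it was 0.12 ± 0.06 higher without passing (adjusted p = 0.117). The H2O2 call was lost on leaving out untreated library 1 or 3 or H2O2 library 1 or 3 (adjusted p from 0.0752 to 0.0916), and with quantile normalization the NCS value passed as well (adjusted p = 0.0452).

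**Figure D2:**
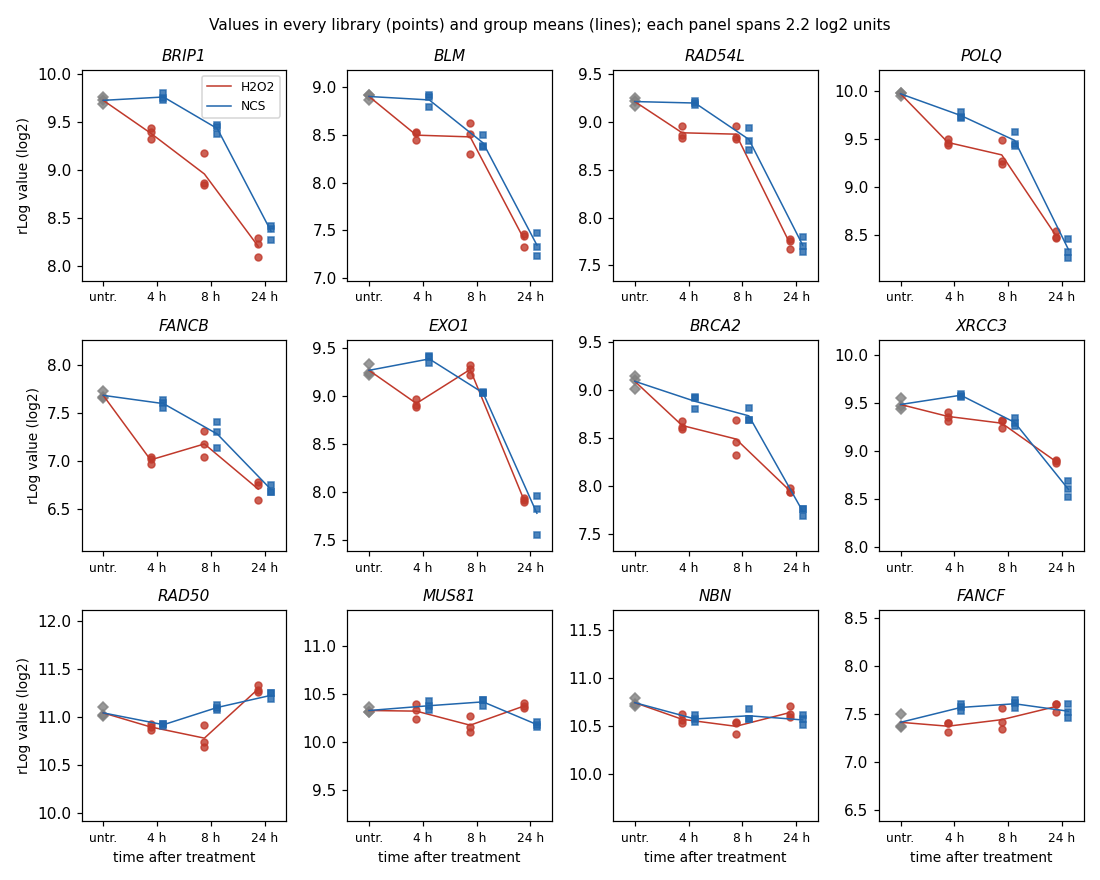
rLog value (log2 scale) of 12 members in each of 21 libraries: grey diamonds are untreated, red circles H2O2 and blue squares NCS, lines join group means, the time points are evenly spaced on the horizontal axis, and each panel spans the same height. BRIP1, BLM, RAD54L and POLQ drop by more than 1 unit by 24 h in both treatments, while the group means of RAD50, MUS81, NBN and FANCF stay within 0.3 of the untreated mean.

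The promoters of the 3 members that fell most with H2O2 are shown first. Below them are those of FANCC, chosen because it holds a letter match for the E2F motif before its start, and RAD50, which rose. Each line runs from 118 to 39 bases before the RefSeq start site (GRCh38.p14), 5′ to 3′ on the gene's strand, with motif matches in capitals.
BRIP1: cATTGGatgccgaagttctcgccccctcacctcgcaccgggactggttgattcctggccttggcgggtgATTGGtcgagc
BLM: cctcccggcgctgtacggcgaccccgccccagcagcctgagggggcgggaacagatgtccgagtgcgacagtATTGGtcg
RAD54L: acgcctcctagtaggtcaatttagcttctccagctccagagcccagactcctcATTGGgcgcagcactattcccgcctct
FANCC: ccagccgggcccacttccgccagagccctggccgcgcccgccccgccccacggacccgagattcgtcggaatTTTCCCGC
RAD50: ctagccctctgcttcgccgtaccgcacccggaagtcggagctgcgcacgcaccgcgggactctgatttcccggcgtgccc
The stretches lie at chr17:61863567-61863646 (minus strand) for BRIP1, chr15:90717228-90717307 (plus) for BLM, chr1:46247570-46247649 (plus) for RAD54L, chr9:95317748-95317827 (minus) for FANCC and chr5:132556859-132556938 (plus) for RAD50.

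The capitals mark ATTGG, the CCAAT box read on the other strand, in BRIP1, BLM and RAD54L, and an E2F match in FANCC. The motifs below were searched on both strands in RefSeq windows from 250 bases before to 50 after each start, and 31 of 35 members matched a window; NBN, DNA2, RAD54B and FANCI did not. The E2F motif was taken as TTTCCCGC, TTTCGCGC, TTTGCCGC or TTTGGCGC and stood in 7 of the 40 member windows (17.5%) and in 1164 of all 35116 windows (3.315%). The members holding it were EXO1, GEN1, FANCD2, XRCC2, RMI1, FANCC and FANCA. The CHR motif, taken as TTTGAA or TTCGAA, stood in 15% of member windows and 16.35% of all windows, and CCAAT stood in 42.5% and 34.61%. Matches were counted motif by motif, so a base could belong to more than one. FANCF and MUS81, which did not fall with H2O2 at 24 h, each hold CCAAT in the window too, and a letter match is a description of the window, not of a bound factor.

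Of the 6 end-resection genes, 3 encode the subunits of one complex. MRE11A, its nuclease, was lower at every H2O2 time and at 8 and 24 h of NCS, and ended 0.67 and 0.70 below untreated cells (limma adjusted p = 2.29e-10 and 1.29e-10). RAD50, its ATPase, instead ended above untreated cells, at 11.26, 11.29 and 11.34 with H2O2 and 11.25, 11.25 and 11.19 with NCS against 11.11, 11.02 and 11.01. None of the 24 h libraries overlapped the untreated ones for RAD50, and the rises were 0.25 ± 0.04 and 0.19 ± 0.04 (limma adjusted p = 9.27e-05 and 0.00166). NBN, the third subunit, showed the small falls given above. Whether the subunits differ from each other was not tested.

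The nucleases and their starter fell further. RBBP8 encodes CtIP, which starts resection with MRE11, and it fell by 0.73 with H2O2 and 0.91 with NCS at 24 h (limma adjusted p = 2.14e-12 and 9.13e-14). EXO1 and DNA2, nucleases that carry resection over long distances, fell by 1.35 and 1.11 with H2O2 and by 1.49 and 1.11 with NCS.

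All 5 genes of the BRCA1-BRCA2 axis fell at 24 h in both treatments, 4 of them by more than 1. BRCA1 and its ubiquitin-ligase partner BARD1 fell by 1.05 and 1.29 with H2O2 and by 1.17 and 1.37 with NCS. PALB2, the bridge between BRCA1 and BRCA2, fell least of the 5, by 0.47 and 0.46 (limma adjusted p = 4.32e-08 and 6.04e-08).

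The genes of strand exchange also all fell at 24 h, 4 of 6 by more than 1 in each treatment. Of the genes that steady the protein filament on single-stranded DNA, RAD51C fell by 0.32 and 0.38 at 24 h, XRCC3 by 0.59 and 0.89, and XRCC2 by 1.09 and 1.30. At 8 h of NCS RAD51C passed as lower when library medians were aligned or untreated library 3 was left out (limma adjusted p = 0.0469 and 0.0228), but not otherwise. RAD51AP1, which helps pair strands, fell by 1.40 in both treatments, and the motor RAD54B fell by 1.03 and 1.11. RAD54B shares exons with FSBP and RAD50 with AC116366.3 on the same strand in GENCODE v29, so reads could have been divided between them in ways not known here.

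In the Fanconi core complex 7 of 8 genes fell at 24 h in each treatment, and 2 of them, FANCA and FANCG, fell by more than 1. FANCB fell by 0.98 in each treatment, FANCM, the translocase that anchors the complex to DNA, by 0.81 and 0.80, and FANCC by 0.77 and 0.83. FANCE, which binds FANCD2, fell by 0.52 with H2O2 and 0.67 with NCS. FANCL, the ubiquitin ligase itself, fell by 0.52 at 8 h of H2O2 and by 0.36 at 24 h, and by 0.44 and 0.35 with NCS. Its change from 8 to 24 h did not pass the test in either treatment (0.16 and 0.09, limma adjusted p = 0.0884 and 0.453), although without H2O2 8 h library 2 the first of these did (adjusted p = 0.00624).

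The 4 genes of the FANCD2 ubiquitin cycle were the most uniform at 24 h, each falling by more than 1 in each treatment. FANCD2 and FANCI, the clamp that receives ubiquitin, fell by 1.46 and 1.27 with H2O2 and by 1.45 and 1.30 with NCS. UBE2T, the conjugating enzyme, fell by 1.33 and 1.40, and USP1, the enzyme that removes the ubiquitin, fell by 1.30 and 1.27 (limma adjusted p for USP1 = 5.6e-15 and 6.19e-15).

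Genes that process joint molecules include the partners of the MUS81-EME1 nuclease, whose difference from each other was not tested. EME1 fell by 1.30 with H2O2 and 1.34 with NCS (limma adjusted p = 8.2e-12 and 5.85e-12), beside the MUS81 values given above. GEN1, a resolvase of Holliday junctions, fell by 0.80 in each treatment, and RMI1, a partner of BLM, by 0.77 and 0.84. Exons of 11 members (EME1, GEN1, MUS81, FANCA, FANCD2, FANCF, FANCI, FANCL, MRE11A, RAD54L and XRCC3) overlap another gene on the opposite strand in GENCODE v29, and the strand setting of the read counting was not given in the sources used here.

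The times at which members first passed as lower differed between the agents, but a difference in order was not tested. A call with a single agent is not itself a difference between the agents, which were compared directly below. At 4 h of H2O2, 26 members had fallen, against 19.7% of all genes, and 1 rose, against 26.2%. Over genes with a mean of at least 5 these shares were 32.5% and 22.4%. At 4 h of NCS 10 had fallen, against 9.72%, and none rose, against 7.47% (limma). At an unadjusted p under 0.05, 17 members were lower at 4 h of NCS and 26 at 4 h of H2O2. By that limit 3 members, RAD51C, XRCC3 and FANCF, were higher at 4 h of NCS. At 8 h the counts were 32 lower with H2O2, against 18.6%, and 30 with NCS, against 13.3%, and 0 and 1 higher, against 18.8% and 10.5% (limma; the 0 with H2O2 was also 0 at an unadjusted p under 0.05). The median member difference went from -0.27 to -0.42 to -1.05 with H2O2 and from -0.10 to -0.36 to -1.11 with NCS.

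With H2O2, 24 members were lower at all 3 times and 7 first passed as lower at 8 h, namely XRCC2, RAD51AP1, FANCL, UBE2T, USP1, MUS81 and EME1. With NCS the 10 early ones were NBN, BARD1, BRCA2, RAD51AP1, FANCE, FANCM, UBE2T, USP1, EME1 and POLQ, and 20 more first passed at 8 h. RAD51AP1, UBE2T, USP1 and EME1 thus passed at 4 h of NCS but not at 4 h of H2O2. The USP1 call at 4 h of NCS was lost with quantile normalization (limma adjusted p = 0.19) and without untreated library 1 or 2 or any NCS library (0.0814 to 0.198), that of BRCA2 without untreated library 1 or 2 or any NCS library (0.0552 to 0.171), and that of FANCM without untreated library 2 (0.0529). The count of 10 ranged from 7, without untreated library 2, to 15, with library medians aligned or a minimum mean of 5. XRCC2 was the member that rose at 4 h of H2O2, at 8.21, 8.19 and 8.16 against 8.09, 7.99 and 7.99 untreated. Its H2O2 libraries were clear of the untreated ones, by 0.17 ± 0.06 on average (limma adjusted p = 0.019). That call was lost on leaving out untreated library 2 or 3 or H2O2 library 1 (adjusted p = 0.0659, 0.0658 and 0.0609).

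The larger share of the median fall came after 8 h. From 8 to 24 h, 30 members fell and 3 rose with H2O2, against 23.2% and 19.4% of all genes, and 31 fell and 1 rose with NCS, against 15.0% and 14.9%. The median step was -0.58 with H2O2 and -0.72 with NCS. The risers were RAD50 in both treatments, by 0.51 with H2O2 and 0.12 with NCS, and NBN and MUS81 with H2O2, by 0.14 and 0.20 (limma adjusted p = 1.97e-08, 0.0348, 0.00828 and 0.000642). The RAD50 call with NCS was lost when NCS library 1 or 2 of either time was left out (adjusted p from 0.0794 to 0.109).

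The 2 agents were then compared directly at each time, without the untreated libraries. At 4 h, 21 of 35 members were lower with H2O2 than with NCS, against 18.0% of all genes, and 5 were higher, against 26.3%. Over genes with a mean of at least 5 the shares were 29.6% and 22.8%. At 8 h 13 were lower, against 15.4%, and 5 higher, against 18.7%. With a mean of at least 5 the shares at 8 h were 24.9% and 26.2%. In either direction 51.43% of members passed at 8 h, against 51.2% of those genes, so that number is near the share of expressed genes. At 24 h none was lower, against 10.9% (limma; only BRIP1 was lower at an unadjusted p under 0.05, and it passed with library medians aligned), and 6 were higher, against 11.0%. Among genes with a mean of at least 5, 17.2% were higher at 24 h, so the 6 of 35 members are no more than the share of expressed genes. The median absolute difference shrank from 0.19 to 0.12 to 0.06.

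**Figure D3:**
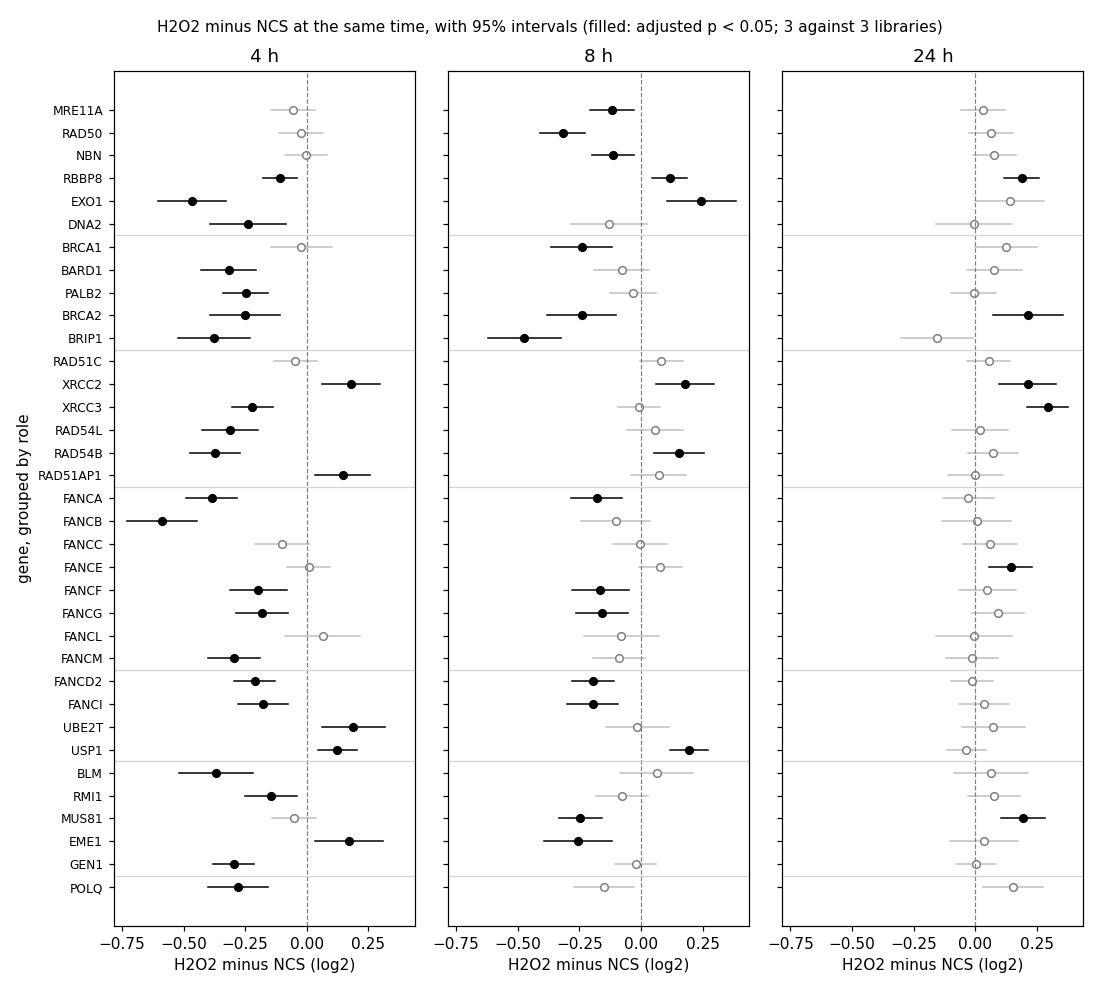
H2O2 minus NCS (log2 scale) for each member at 4, 8 and 24 h, genes in rows grouped by role; points are differences of group means of 3 libraries, bars are 95% intervals from limma that are not adjusted for the number of genes, and filled points passed an adjusted p under 0.05. Points at 4 h lie mostly left of 0, as far as -0.59 for FANCB, and at 24 h they lie within 0.3 of 0.

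At 4 h the differences with the greatest size were those of FANCB and EXO1. FANCB, a core subunit, read 6.97, 7.04 and 7.03 with H2O2 and 7.61, 7.64 and 7.55 with NCS, beside 7.73, 7.67 and 7.66 untreated. All H2O2 libraries lay below all NCS libraries, by 0.59 ± 0.07 (limma adjusted p = 9.26e-07). The FANCB fall from untreated cells was 0.67 with H2O2, while NCS gave -0.09 without passing (adjusted p = 0.493).

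EXO1 read 8.91, 8.88 and 8.97 at 4 h of H2O2 and 9.34, 9.41 and 9.41 at 4 h of NCS, beside 9.22, 9.34 and 9.24 untreated. The H2O2 libraries were below every untreated one, the NCS libraries were above them (library 1 by less than 0.01), and H2O2 lay 0.46 ± 0.07 under NCS (limma adjusted p = 1.32e-05). At 8 h the order was the other way, with 9.22, 9.29 and 9.33 for H2O2 and 9.03, 9.03 and 9.04 for NCS (0.24 ± 0.07, adjusted p = 0.00703). Over the course of H2O2 EXO1 was thus low at 4 h, back in the untreated range at 8 h (0.01, limma adjusted p = 0.943) and low again at 24 h.

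The 5 members that were higher with H2O2 than with NCS at 4 h were XRCC2, RAD51AP1, UBE2T, USP1 and EME1. UBE2T read 9.61, 9.65 and 9.69 with H2O2 and 9.45, 9.49 and 9.45 with NCS, beside 9.71, 9.72 and 9.80 untreated. Its NCS libraries lay below all the others, and the difference between the agents was 0.19 ± 0.06 (limma adjusted p = 0.0158). The other 4 differed by 0.12 to 0.18. The calls were lost for UBE2T without H2O2 4 h library 3 (adjusted p = 0.0604), for USP1 without H2O2 4 h library 2 (0.0688), for RAD51AP1 without library 1 or 2 of H2O2 or library 1 or 3 of NCS (0.0805 to 0.107), and for EME1 without any 1 of the 6 libraries (0.0501 to 0.126).

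By role, the members lower with H2O2 at 4 h were 3 of 6 in resection, 4 of 5 in the BRCA1-BRCA2 axis, 3 of 6 in strand exchange, 5 of 8 in the core complex, 2 of 4 in the FANCD2 cycle and 3 of 5 in joint-molecule processing, with POLQ as well. Of the BRCA1-BRCA2 axis, BRCA1 was the exception, differing by -0.02 ± 0.06 (limma adjusted p = 0.821). BARD1, PALB2, BRCA2 and BRIP1 differed by -0.32, -0.25, -0.25 and -0.38.

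FANCE, unlike FANCB, had fallen at 4 h of either agent. It read 9.78, 9.78 and 9.79 untreated, 9.35, 9.41 and 9.46 at 4 h of H2O2, and 9.39, 9.45 and 9.37 at 4 h of NCS. Both agents were clear of the untreated libraries and overlapped each other, with falls of 0.37 and 0.38 (limma adjusted p = 7.29e-07 and 2.34e-06). FANCE was the member with the greatest fall at 4 h of NCS, and by 24 h it had moved only to 0.52 and 0.67 below untreated cells.

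BRIP1 and RAD50 had the greatest differences at 8 h. BRIP1 read 8.84, 9.17 and 8.86 with H2O2 and 9.38, 9.45 and 9.47 with NCS, so that even the high H2O2 library 2 was below every NCS library. The difference was -0.47 ± 0.07 (limma adjusted p = 3.33e-05). RAD50 read 10.74, 10.92 and 10.69 with H2O2 and 11.10, 11.08 and 11.13 with NCS, a difference of -0.32 ± 0.04 with no overlap (adjusted p = 1.17e-05). Without H2O2 8 h library 2, 15 members rather than 13 were lower and 3 rather than 5 were higher at 8 h, and in a fit of only the 2 groups compared, 4 were lower and 3 higher. Without H2O2 8 h library 1, 9 were lower and 5 higher, and the calls of FANCA, FANCF, FANCG and MRE11A were lost (limma adjusted p = 0.0571, 0.152, 0.134 and 0.196).

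At 24 h all 6 members that differed had the lower value with NCS, and they were RBBP8, BRCA2, XRCC2, XRCC3, FANCE and MUS81. XRCC3 read 8.87, 8.90 and 8.90 with H2O2 and 8.60, 8.51 and 8.68 with NCS, with no overlap and a difference of 0.29 ± 0.04 (limma adjusted p = 2.35e-05). BRCA2 read 7.94, 7.98 and 7.94 with H2O2 and 7.69, 7.76 and 7.76 with NCS, again without overlap, from 9.15, 9.11 and 9.02 untreated. The BRCA2 difference was 0.21 ± 0.07 (adjusted p = 0.0283) and did not pass when any 1 of these 6 libraries was left out (0.0512 to 0.103). For the 29 members that did not pass at 24 h, the 95% intervals of the difference reached from -0.30 for BRIP1 to 0.28 for EXO1, so these values do not show that the agents acted alike on those members.

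Whether the gap between the agents itself changed was tested as H2O2 minus NCS at 24 h less the same difference at 4 h. It changed for 21 of 35 members, against 39.4% of all genes in either direction and 49.1% of genes with a mean of at least 5. In 20 of the 21 the change was upward, that is, toward a higher value with H2O2, as it was for 27.1% of the genes with a mean of at least 5. The median was 0.23 over all 35 members, and USP1 alone went the other way (-0.16, limma adjusted p = 0.0222). EXO1 changed by 0.60, FANCB by 0.59 and XRCC3 by 0.51 (adjusted p = 4.92e-05, 6.68e-05 and 1.08e-06). The USP1 call was lost on leaving out H2O2 4 h library 2, H2O2 24 h library 1 or 2, or NCS 24 h library 1 or 3 (adjusted p from 0.0522 to 0.0662).

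A further 51 genes of the same pathways were listed for comparison, of which 49 varied and SLX1A and SLX1B were at 0 throughout. At 24 h 30 of the 49 fell and 8 rose with H2O2, and 32 fell and 8 rose with NCS, with medians of -0.22 in each. Among the greatest falls were those of UHRF1, which reads hemimethylated DNA and crosslinks (-1.85 with H2O2 and -1.90 with NCS) and FIGNL1, an ATPase of recombination (-1.20 and -1.29). The greatest rises were of RECQL5, a helicase that restrains recombination (0.39 and 0.34), EME2, an alternative partner of MUS81 (0.30 and 0.39), and SWI5, a strand exchange cofactor (0.27 and 0.34). Of 15 genes of nonhomologous end joining, which rejoins ends without a template and works throughout the cell cycle, 8 fell and 4 rose at 24 h of H2O2, and 8 fell and 3 rose with NCS, with medians of -0.08 and -0.22. Over all genes, 19.9% fell and 20.2% rose with H2O2, and 18.4% fell and 19.6% rose with NCS. Among genes with a mean of at least 5, 31.8% and 29.6% fell and 30.3% rose in each treatment, so the rises of the end joining genes (26.7% and 20.0%) were no result about that list.

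Genes of the cell cycle moved over the same hours. BLM, BRIP1, EXO1, RAD51AP1 and USP1 belong to a common S-phase list of 43 genes, and of the other 38 all fell at 24 h in each treatment, with medians of -1.24 for H2O2 and -1.30 for NCS. The 30 members outside that list had medians of -0.89 and -0.95, with 27 and 28 lower. All 54 genes of a G2/M list fell at 24 h, with medians of -1.62 and -1.93. These falls are RNA levels and do not count the cells in G2/M. Flow cytometry of surviving cells in the paper, at the last sampled time and later, found that cells built up strongly in G2/M after NCS. With H2O2 the paper also reported arrest, but a larger share of cells went on into S phase than with NCS. How the falls of the list relate to those phase shares was not tested. At 4 h, 19 of the 38 S-phase genes were lower with H2O2 than with NCS and 2 were higher (median -0.10), whereas of the G2/M genes 2 were lower and 44 were higher (median 0.35). The part of a change in cell cycle in the members' differences was not tested.

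**Figure D4:**
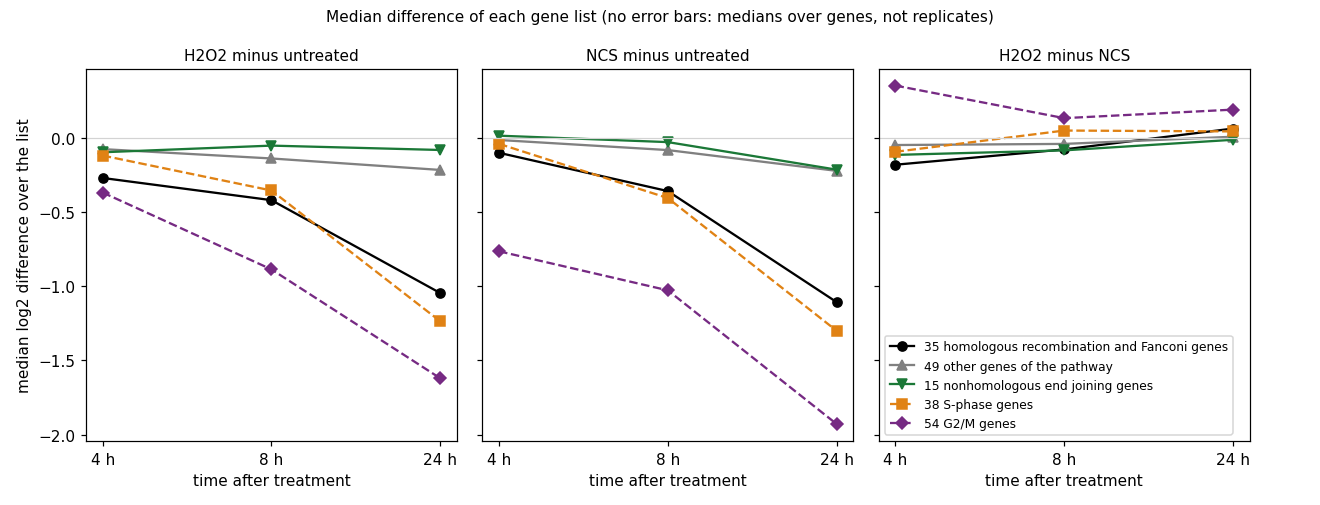
Median log2 difference over the genes of each list at 4, 8 and 24 h: H2O2 minus untreated on the left, NCS minus untreated in the middle and H2O2 minus NCS on the right. The members (black) and the S-phase genes (orange, members left out) are both lowest at 24 h in the left and middle panels. At 4 h of H2O2 the median was -0.27 for the members and -0.13 for the full S-phase list, shared members included. At 4 h in the right panel the G2/M genes lie at 0.35 while the members lie at -0.18. UHRF1 and RPA2 are among genes in both the S-phase list and the list of other pathway genes.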

How the data were processed

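Poly(A) RNA from hTERT-HPNE cells was sequenced from a stranded kit. Per the paper's methods and the submitters' processing notes, reads were aligned with HISAT2 (hg19) and counted with htseq-count, and the deposited values are rLog values on the log2 scale that the authors made with DESeq2. Versions, annotation and strand setting are not given in the sources used here. No counts were analysed, so depth is unknown. The 3 libraries of a group are biological replicates by the labels, and no 2 libraries held the same values.

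A total of 3674 of 23368 genes were 0 in every library and were left out. The other 19694 were fitted in 1 model of 7 groups with limma 3.58.1 (R 4.3.3, with a mean trend), and p-values were adjusted by the Benjamini-Hochberg method over all of them for each of 12 comparisons. The fit was tested on simulated data. An exact two-sided permutation test of 3 against 3 libraries cannot go below 0.1, so none is used for calls. rLog values shrink differences, so folds are understated for noisy genes. Library medians lay close together, and quantile normalization and median alignment were tried as alternatives, with a minimum mean of 5, only the groups compared, a replicate block and each library left out.

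A few listed genes are not reported here. The members and lists were chosen with earlier results of these data known. Values in every library are given for members with the 3 largest and 3 smallest differences at 24 h in each treatment and the 2 largest between treatments at each time. XRCC2, UBE2T and FANCE at 4 h and RAD50 at 24 h were added after their values were seen. Promoter stretches and motifs were read from RefSeq (GRCh38.p14), and exon overlaps from GENCODE release 29 by gene symbol, without the hg19 coordinates.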

Additional observations from a re-analysis of the deposited data

Results flagged for a closer look

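The gap between H2O2 and NCS changed between 4 and 24 h for 21 of 35 members by a limma test of the difference itself (adjusted p under 0.05 over all genes). It also changed for 39.4% of all genes and 49.1% of genes with a mean of at least 5. The change, on the log2 scale, was 0.60 for EXO1, 0.59 for FANCB, 0.51 for XRCC3, 0.47 for BRCA2, 0.44 for RAD54B, 0.43 for BLM and 0.43 for POLQ. It was 0.39 for BARD1, 0.36 for FANCA, 0.33 for RAD54L, 0.30 for RBBP8, 0.30 for GEN1, 0.28 for FANCM and 0.27 for FANCG. It was 0.25 for MUS81, 0.24 for PALB2, 0.24 for FANCF, 0.22 for RMI1, 0.21 for FANCI and 0.20 for FANCD2. Only USP1 changed downward, by -0.16. The calls for FANCF, FANCI and RMI1 were lost with quantile normalization (adjusted p = 0.0955, 0.0558 and 0.185).

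In 3 members every library of one agent moved opposite to every library of the other. The share of all genes that do so was not counted, so this number is no result about the members. EXO1 at 4 h was lower than untreated cells by -0.35 with H2O2 and higher by 0.12 with NCS, and XRCC3 at 4 h stood at -0.12 and 0.10. MUS81 at 8 h stood at -0.15 with H2O2 and 0.092 with NCS relative to untreated cells. With shared untreated libraries the difference of these effects is H2O2 minus NCS at that time, which passed for EXO1, XRCC3 and MUS81 (limma adjusted p = 1.32e-05, 0.000169 and 0.000135). The MUS81 step from 8 to 24 h was 0.20 with H2O2 and -0.24 with NCS, and the difference between these steps was not tested. Of the values against untreated cells, those of NCS did not pass the limma test for any of the 3.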

How the results depend on the processing

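No direction of a called difference turned under any alternative. Leaving out each library in turn gave 31 to 32 members lower at 24 h of H2O2 and 33 at 24 h of NCS, but 7 to 10 at 4 h of NCS (10), where aligning library medians or a minimum mean of 5 gave 15. Counts of members passing as higher are small and moved more. Leaving out 1 library gave 0 to 1 higher at 4 h of H2O2 (1 with all libraries), 1 to 2 at 24 h of H2O2 (2), 0 to 3 at 4 h of NCS (0), 0 to 1 at 8 h of NCS (1), 2 to 4 for H2O2 over NCS at 4 h (5), 3 to 5 at 8 h (5), and 0 to 1 for NCS from 8 to 24 h (1). With a minimum mean of 5, 1 member was higher at 4 h of NCS and 5 from 8 to 24 h of H2O2. With quantile normalization 2 were higher at 8 h of NCS, 2 at 24 h of NCS, and 0 from 8 to 24 h of NCS. With only the groups compared, 4 members were lower and 3 higher for H2O2 against NCS at 8 h. With library medians aligned, 1 member, BRIP1, was lower for H2O2 against NCS at 24 h. The causes were not tested. Over single members, leaving out a library lost a call in 103 cases, gained one in 21 and kept the side of the threshold in 2606. Aligning medians moved the median of all genes by at most 0.0303 and quantile normalization by at most 0.0153.

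Same-numbered libraries deviated together only slightly, if at all (mean correlation 0.0274, from -0.149 to 0.213, against -0.0137 for different numbers). Of 21 libraries, 12 correlated best with their own number, so a weak shared effect is not excluded. The numbers were not taken to pair the samples. A replicate block left each count within 1.5 times, at 32 and 33 members lower at 24 h, and 4 single calls were gained, among them POLQ between the agents at 24 h (adjusted p = 0.0376). What depth limits could not be assessed, since no counts were analysed here.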
